A study of Mus musculus with 24 samples.

Results

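The genes that encode chemokines and their receptors were examined in the spleens of leukemic mice. The members were all rows of the deposited expression table whose gene name is Ccl, Cxcl, Ccr or Cxcr followed by a number and at most 1 letter. This rule found 54 of 46078 rows, of which 38 were ligands and 16 were receptors, for 53 gene names (Ccl27a has 2 rows). Spleen RNA of 24 male C57BL/6J mice, labelled as 20 weeks old, was sequenced, with 6 mice in each of 4 groups. The authors give 20 weeks as the age at injection of the leukemia cells, and the spleens were taken when treatment ended. Every mouse, those of the control group included, carried B-ALL from injected syngeneic leukemia cells that express BCR-ABL and GFP. The AL group was fed ad libitum and given vehicle, and the FMD group received cycles of a fasting-mimicking diet and vehicle. The AL + VC group was fed ad libitum and given vincristine, and the FMD + VC group received both the diet and vincristine. Vincristine is a chemotherapy drug that blocks microtubule assembly. There was no group without leukemia. The values are rlog values, a log2 scale on which DESeq2 draws genes with few reads toward their own mean, so differences of low genes are understated and levels cannot be compared between genes. Of the 54 rows, 30 (15 ligands and 15 receptors) reached a minimum mean rlog of 3.32 (the log2 of 10) and were tested with limma among the 16557 genes that did so. The other 24 rows were not tested.

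Chemokines are small secreted proteins that bind to G protein-coupled receptors on leukocytes and direct where these cells move. In the spleen, CXCL13 from follicular stromal cells draws B cells that carry CXCR5 into follicles, and CCL19 and CCL21 draw T cells and dendritic cells that carry CCR7 into the T cell zone. CXCL12 and its receptor CXCR4 hold hematopoietic and B lineage cells in their niches. Another set, among them CCL5, CXCL9, CXCL10 and CXCL16, is made in inflammation and acts on activated T cells and NK cells through receptors such as CXCR3 and CXCR6. In whole spleen, more RNA of a gene per cell and more cells of the type that expresses it cannot be told apart.

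Over the tested genes, each mouse had a median rlog of 7.73 to 7.86. Xist, the RNA of the inactive X chromosome of female cells, was read at high levels in mice labelled male. Its level was 13.88 to 15.68 in AL, 12.43 to 15.28 in FMD and 10.45 to 12.99 in FMD + VC. In AL + VC it was 14.98, 15.20 and 14.45 in mice 13, 14 and 37 and 10.68, 10.48 and 11.11 in mice 17, 18 and 41. In FMD + VC, markers of mature B and T cells stood higher than in AL (10 of 10 and 10 of 13 tested genes called higher), and markers of neutrophils (6 of 11), erythroid cells (6 of 12) and the cell cycle (14 of 14) lower. Of 7 tested pre-B cell genes 1 was higher and 1 lower (median log2 difference -0.84), with mean levels of 5.59 to 7.38 in AL and 6.03 to 7.99 in FMD + VC. The medians of these levels were 6.99 in AL and 6.21 in FMD + VC. Single mice set the edges, AL mouse 32 at 5.59 and FMD + VC mouse 45 at 7.99. The other AL mice lay at 6.66 or higher and the other FMD + VC mice at 6.26 or lower. Il7r was on both the pre-B cell and the T cell list. Of 12 monocyte and macrophage genes 1 was higher and 0 lower. Among all tested genes 19.5% were higher and 20% lower. The authors caution, for their autophagy genes, that more leukemia cells in AL and FMD spleens than with vincristine might confound expression levels. The part of cell content in the chemokine results was not tested.

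Between FMD + VC and AL, 12 of the 30 tested members were higher and 2 were lower at a Benjamini-Hochberg adjusted p under 0.05. Of all tested genes 39.5% passed in this comparison, 19.5% as higher and 20% as lower. Among the ligands 5 of 15 rose (Cxcl13, Ccl5, Cxcl16, Cxcl9 and Cxcl12) and 2 fell (Ccl22 and Ccl9). Among the receptors 7 of 15 rose (among them Ccr7, Ccr6, Cxcr5, Cxcr2, Cxcr3 and Cxcr6) and 0 fell, with 10 of the 15 at an unadjusted p under 0.05 (49.1% of all tested genes), of which Cxcr4 and Ccr10 were lower. The median log2 difference was -0.13 over the ligands and 0.37 over the receptors, beside -0.03 over all tested genes. The share of all tested genes whose ranges did not overlap between FMD + VC and AL was not determined. Where the ranges of single members or marker lists are said below not to overlap, this cannot be set against that share. The number of receptors that fell depended on the fit. With limma's weights for each mouse, by which mice close to their group mean count more, 13 members were higher and 8 lower, beside 62.9% of all tested genes (30.8% higher and 32.1% lower). Ccl3, Ccl6, Cxcr4, Ccr4, Ccr8 and Ccr10 then also passed as lower and Ccr1 as higher, so that 4 receptors fell. When only FMD + VC and AL were fitted, Cxcr4 and Ccr10 passed as lower and Ccl9 did not pass.

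**Figure D1:**
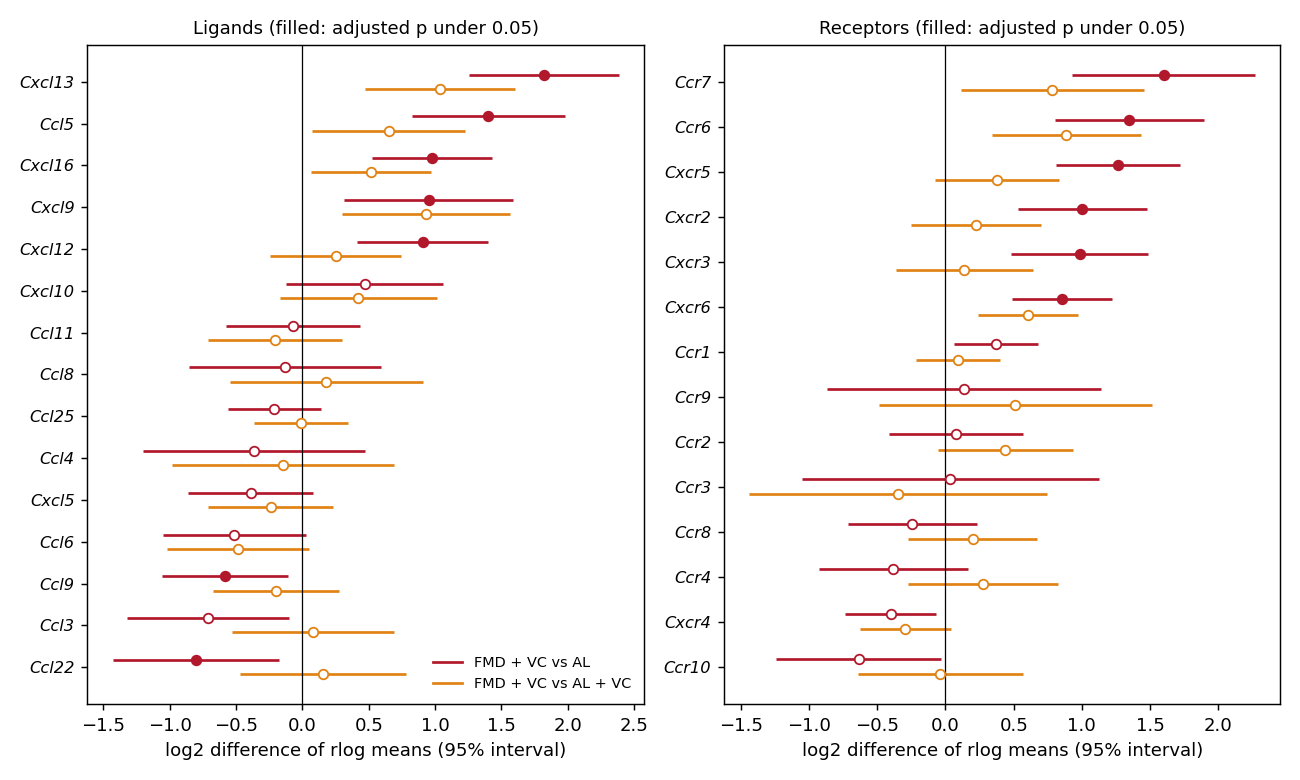
Log2 differences between rlog means of the 15 tested ligands (left) and 14 of the tested receptors (right), with 95% intervals. The dark red points are FMD + VC against AL and the orange points FMD + VC against AL + VC; filled points passed an adjusted p of 0.05. Of the 29 dark red points 13 are filled, 11 of them to the right of 0, and no orange point is filled.

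Cxcl13 and Cxcl12, the ligands of CXCR5 and CXCR4, were both higher in FMD + VC. Cxcl13 (GRCm38 chromosome 5, 95956951 to 95961068, plus strand) had the largest difference between FMD + VC and AL of any tested member. Its lowest, median and highest rlog values were 8.37, 8.98 and 9.68 in the 6 AL mice and 10.60, 10.80 and 11.03 in the 6 FMD + VC mice. The ranges of AL and FMD + VC did not overlap. In FMD the values were 8.91, 9.42 and 9.87 and in AL + VC 8.63, 9.89 and 11.08, so that the AL + VC mice reached from the range of AL to the top of the range of FMD + VC. The log2 difference between FMD + VC and AL was 1.82 (standard error 0.27, adjusted p = 0.000114), the SD being 0.15 in FMD + VC and 0.43 in AL. Cxcl12 (chromosome 6, 117168535 to 117181367, plus strand) had 10.09, 10.56 and 11.02 in AL, 10.37, 10.54 and 11.10 in FMD, 10.81, 11.14 and 12.23 in AL + VC and 10.92, 11.40 and 12.40 in FMD + VC. AL and FMD + VC met at the edges of their ranges, at 11.02 and 10.92. The log2 difference for Cxcl12 was 0.91 (standard error 0.24, adjusted p = 0.00489). Stromal genes mark the cells known to make both chemokines. In FMD + VC, of 11 tested, 4 passed as higher and 2 as lower, and their mean level was 8.39 to 8.93 in AL and 8.68 to 9.17 in FMD + VC.

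Cxcl9, which is induced by interferon gamma, lies beside Cxcl10 on chromosome 5, and both act on CXCR3. The 250 bases before the start of Cxcl13, Cxcl9 and Cxcl10 are shown because the first passed by the widest margin and the other pair, which share a receptor, differed in their call. They are from RefSeq (GRCm38.p6), 5′ to 3′ on the strand of the gene, at chr5:95956689-95956938 (plus), chr5:92328080-92328329 (minus) and chr5:92348890-92349139 (minus). Capitals mark matches, on either strand, to GGGNNNNNCC (the NF-kB type) or, in Cxcl10 alone, to GAAANNGAAA (the interferon-stimulated response element, ISRE).
Cxcl13: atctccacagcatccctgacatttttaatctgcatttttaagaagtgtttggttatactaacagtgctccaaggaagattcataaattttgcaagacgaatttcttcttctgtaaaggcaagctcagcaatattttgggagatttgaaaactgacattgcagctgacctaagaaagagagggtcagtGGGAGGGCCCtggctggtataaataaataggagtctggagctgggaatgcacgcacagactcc
Cxcl9: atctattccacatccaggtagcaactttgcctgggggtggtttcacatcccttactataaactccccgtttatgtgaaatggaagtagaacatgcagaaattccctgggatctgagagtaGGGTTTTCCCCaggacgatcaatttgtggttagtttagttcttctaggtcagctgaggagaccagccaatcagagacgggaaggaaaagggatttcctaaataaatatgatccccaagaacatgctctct
Cxcl10: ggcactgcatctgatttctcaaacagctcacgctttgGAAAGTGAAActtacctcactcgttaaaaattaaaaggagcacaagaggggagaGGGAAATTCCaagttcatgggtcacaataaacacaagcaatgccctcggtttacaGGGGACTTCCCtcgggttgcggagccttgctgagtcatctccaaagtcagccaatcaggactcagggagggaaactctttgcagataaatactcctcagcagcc

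The promoter of Cxcl10 held 1 match to GAAANNGAAA, which 2.98% of 32851 windows of this length hold, and the other 2 promoters held none. For GGGNNNNNCC there was 1 match in Cxcl13, 2 overlapping matches in Cxcl9 and 3 in Cxcl10, of which 2 overlapped, and 45.8% of the windows hold at least 1. These matches describe the letters of the windows only.

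Cxcl9 (chromosome 5, 92321347 to 92328079, minus strand) had 6.78, 8.05 and 9.32 as lowest, median and highest values in AL, 7.29, 8.03 and 8.39 in FMD, 7.40, 7.97 and 8.81 in AL + VC and 8.59, 9.02 and 9.33 in FMD + VC. AL spanned nearly the whole range of the other groups, while every FMD + VC mouse lay above every FMD mouse. The log2 difference between FMD + VC and AL was 0.95 (standard error 0.31, adjusted p = 0.0176), and without AL mouse 32, the lowest of its group, Cxcl9 no longer passed (adjusted p 0.00227 to 0.0516 over the 12 fits without 1 mouse). Cxcl10 had a log2 difference of 0.47 and did not pass (adjusted p = 0.197).

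Ccl5 and Cxcl16, the latter the ligand of CXCR6, were also higher. Ccl5 (chromosome 11, 83525778 to 83530518, minus strand), which activated T cells and NK cells make, had 7.28, 7.86 and 8.67 in AL and 8.96, 9.25 and 9.59 in FMD + VC. It had 7.68, 8.32 and 8.71 in FMD and 7.75, 8.60 and 9.57 in AL + VC. FMD + VC lay wholly above AL and FMD and overlapped AL + VC. The log2 difference from AL was 1.40 (standard error 0.28, adjusted p = 0.000694). Cxcl16 (chromosome 11, 70453983 to 70459984, minus strand), a chemokine also made in a membrane-bound form, had 7.20, 7.85 and 8.15 in AL, 7.44, 8.00 and 8.21 in FMD, 7.42, 8.36 and 8.79 in AL + VC and 8.42, 8.76 and 8.98 in FMD + VC. AL and FMD + VC did not overlap, and the log2 difference was 0.97 (standard error 0.22, adjusted p = 0.00157). Of the 50-base windows of Cxcl16 transcripts 16.9% are shared with Zmynd15, which overlaps it, so reads there may have been lost or assigned to either gene.

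Ccl22 and Ccl9 were the 2 ligands that fell. Ccl22 (chromosome 8, 94745590 to 94751699, plus strand), made by dendritic cells and macrophages and a ligand of CCR4, had 7.33, 8.50 and 8.86 in AL, 7.27, 8.08 and 9.36 in FMD, 6.78, 7.44 and 7.84 in AL + VC and 7.03, 7.54 and 8.00 in FMD + VC. Its groups overlapped through AL mouse 32, at 7.33, while the other 5 AL mice lay at 8.35 or higher. The log2 difference was -0.80 (standard error 0.30, adjusted p = 0.0382), and it passed in 3 of the 12 fits that left out 1 mouse, those without AL mouse 32 or FMD + VC mouse 42 or 46 (adjusted p 0.00971 to 0.0839 over the 12). Ccl9 (chromosome 11, 83572919 to 83578636, minus strand), a myeloid chemokine that binds CCR1, had 6.00, 6.69 and 7.63 in AL, 6.36, 6.68 and 6.98 in FMD, 5.40, 6.48 and 6.78 in AL + VC and 5.90, 6.05 and 6.81 in FMD + VC. The ranges overlapped, and the log2 difference was -0.58 (standard error 0.23, adjusted p = 0.048). It passed in 3 of 12 fits, those without AL mouse 32 or 33 or FMD + VC mouse 45 (adjusted p 0.0155 to 0.135).

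**Figure D2:**
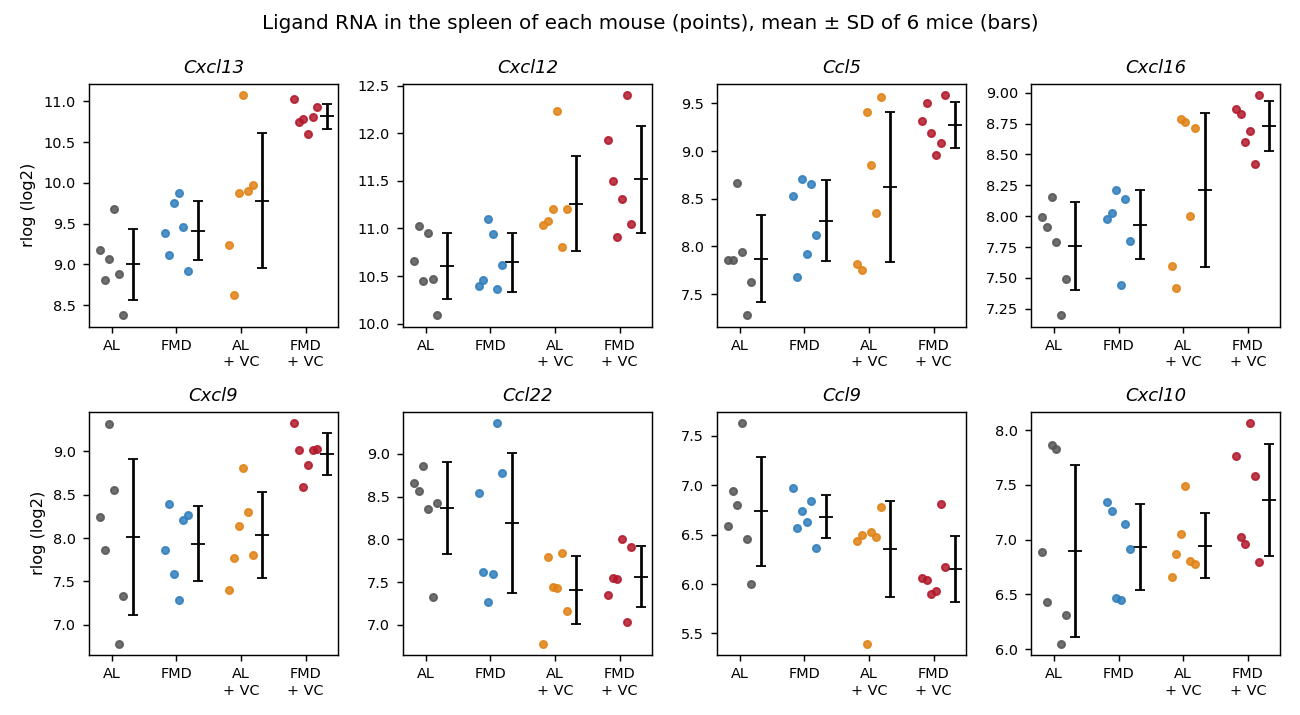
Rlog value (log2, vertical axis) of 8 ligands in each mouse, by group; points are mice, and the bars are the mean ± SD of 6 mice. For Cxcl13, Ccl5 and Cxcl16 every FMD + VC point lies above every AL point, and the AL + VC points of these genes spread over most of the axis.

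The other 8 tested ligands did not pass. Their log2 differences between FMD + VC and AL were 0.47 for Cxcl10, -0.07 for the eosinophil attractant Ccl11, -0.13 for Ccl8, -0.21 for Ccl25, -0.36 for Ccl4, -0.39 for the neutrophil attractant Cxcl5, -0.51 for Ccl6 and -0.71 for Ccl3. Ccl3, a ligand of CCR1, came nearest to the threshold (standard error 0.29, adjusted p = 0.0575).

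The receptors of lymphoid homing, Cxcr5, Ccr7 and Ccr6, rose in FMD + VC. Cxcr5 (chromosome 9, 44511787 to 44561877, minus strand), carried by mature B cells and follicular helper T cells, had 9.30, 10.33 and 10.75 in AL and 11.20, 11.41 and 11.51 in FMD + VC. It had 9.81, 10.53 and 10.80 in FMD and 10.51, 11.13 and 11.34 in AL + VC. The FMD + VC mice, with an SD of 0.12, lay wholly above both groups without vincristine. The log2 difference from AL was 1.27 (standard error 0.22, adjusted p = 0.000256). Ccr7 (chromosome 11, 99144196 to 99155077, minus strand), carried by naive T cells and mature dendritic cells, had 7.81, 8.80 and 9.45 in AL, 8.48, 8.96 and 9.42 in FMD, 8.14, 9.65 and 10.74 in AL + VC and 9.92, 10.31 and 10.68 in FMD + VC. Again FMD + VC did not overlap with AL or FMD, while AL + VC held the lowest value outside AL and the highest of all 24 mice. The log2 difference for Ccr7 was 1.60 (standard error 0.32, adjusted p = 0.000787).

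Ccr6 (chromosome 17, 8236043 to 8257141, plus strand), a receptor of mature B cells and some T cells, had 7.04, 8.02 and 8.28 in AL, 7.54, 8.56 and 8.96 in FMD, 7.34, 8.37 and 9.01 in AL + VC and 8.74, 9.15 and 9.51 in FMD + VC. FMD + VC was apart from AL and overlapped FMD and AL + VC. The log2 difference from AL was 1.35 (standard error 0.26, adjusted p = 0.000623). Ccl20, its ligand, was under the minimum. Cxcr4 (chromosome 1, 128588199 to 128592293, minus strand) was the homing receptor that did not pass. Its values were 11.45, 11.70 and 12.09 in AL, 11.48, 11.57 and 11.69 in FMD, 10.70, 11.71 and 12.08 in AL + VC and 10.89, 11.40 and 11.52 in FMD + VC. AL and FMD + VC overlapped narrowly, with a log2 difference of -0.40 (95% interval -0.73 to -0.07, adjusted p = 0.0519). Cxcr4 passed without AL mouse 32 or 33 or FMD + VC mouse 42, 45 or 46 (adjusted p 0.0401 to 0.13 over the 12 fits). Its ligand Cxcl12 thus rose, while Cxcr4 lay at the edge of the threshold with a negative difference.

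Beside these receptors stood a change in markers of the cells that carry them. All 10 mature B cell genes were higher in FMD + VC than in AL, with a median log2 difference of 1.93. Their mean level was 9.84 to 10.82 in AL, 10.50 to 11.73 in FMD, 10.36 to 12.30 in AL + VC and 11.91 to 12.55 in FMD + VC. Of 13 tested T cell genes 10 were higher and 0 lower, with a median of 1.93, and their mean level was 7.47 to 8.88 in AL and 9.40 to 10.27 in FMD + VC. Neither list overlapped between these groups. Of 7 dendritic cell genes 3 were higher and 0 lower. Whether Cxcr5, Ccr6, Ccr7 and Ccl5 changed apart from these markers was not tested.

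**Figure D3:**
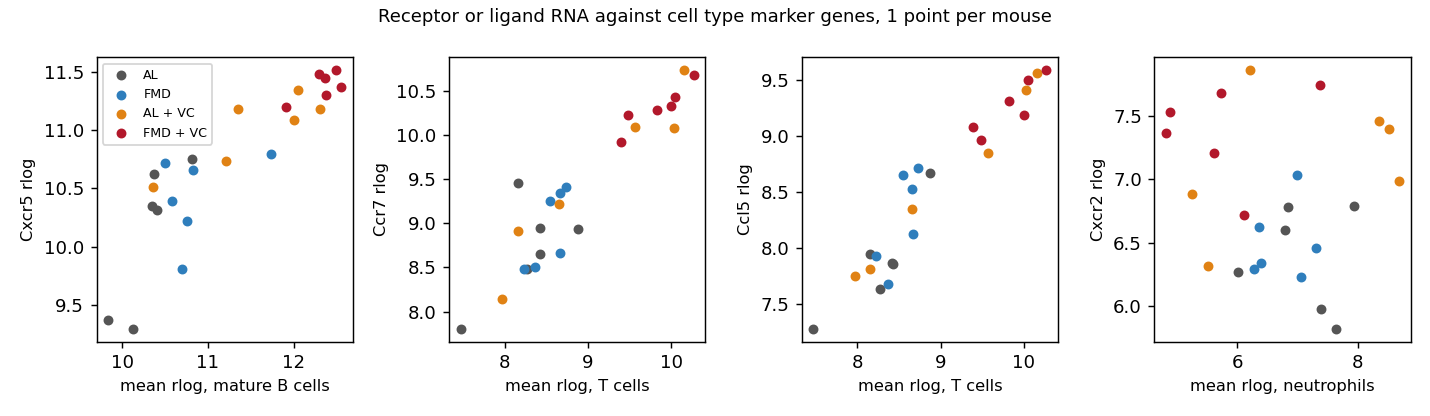
Rlog value of Cxcr5, Ccr7, Ccl5 and Cxcr2 (vertical axes) against the mean rlog of the mature B cell, T cell, T cell and neutrophil marker lists (horizontal axes), 1 point per mouse, coloured by group. For the first 3 genes the mice with the highest marker means, at 12.55 for mature B cells and 10.27 for T cells, are FMD + VC mice; for Cxcr2 the FMD + VC mice lie high on the vertical axis at neutrophil means of 4.81 to 7.37.

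The receptors of activated lymphocytes, Cxcr3 and Cxcr6, were higher as well. Cxcr3 (chromosome X, 101731535 to 101734269, minus strand), carried by type 1 helper and cytotoxic T cells, had 6.23, 7.39 and 8.03 in AL, 6.96, 7.70 and 8.08 in FMD, 7.51, 8.05 and 8.60 in AL + VC and 8.00, 8.25 and 8.45 in FMD + VC. Only the edges of AL and FMD + VC met, at 8.03 and 8.00. The log2 difference was 0.98 (standard error 0.24, adjusted p = 0.00308). Cxcr6 (chromosome 9, 123806475 to 123811760, plus strand), the receptor of CXCL16, had 6.35, 6.79 and 7.02 in AL, 6.54, 6.83 and 7.10 in FMD, 6.55, 6.86 and 7.57 in AL + VC and 7.21, 7.78 and 7.79 in FMD + VC. FMD + VC lay above AL and FMD without overlap, with a log2 difference from AL of 0.85 (standard error 0.18, adjusted p = 0.000924). Of the 13 tested T cell genes 10 were higher, with mean levels of 7.47 to 8.88 in AL and 9.40 to 10.27 in FMD + VC. Of 6 tested NK cell genes 3 passed as higher and 1 as lower, with mean levels of 5.96 to 6.95 in AL and 6.49 to 7.17 in FMD + VC. Whether Cxcr3 and Cxcr6 changed apart from these markers was not tested.

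Cxcr2 (chromosome 1, 74153989 to 74161246, plus strand), the receptor by which neutrophils respond to CXCL1, CXCL2 and CXCL5, had 5.82, 6.43 and 6.79 in AL, 6.23, 6.40 and 7.03 in FMD, 6.31, 7.19 and 7.86 in AL + VC and 6.72, 7.45 and 7.74 in FMD + VC. AL and FMD + VC overlapped narrowly. The log2 difference was 1.00 (standard error 0.23, adjusted p = 0.00188). Of 11 tested neutrophil marker genes, which were not separated by maturation stage, 6 were lower and 0 higher in FMD + VC. Their median log2 difference was -1.58, with mean levels of 6.01 to 7.93 in AL and 4.81 to 7.37 in FMD + VC. How Cxcr2 stood to neutrophils of each stage was not tested. Of the windows of Cxcr2 transcripts 6.68% are shared with other genes.

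**Figure D4:**
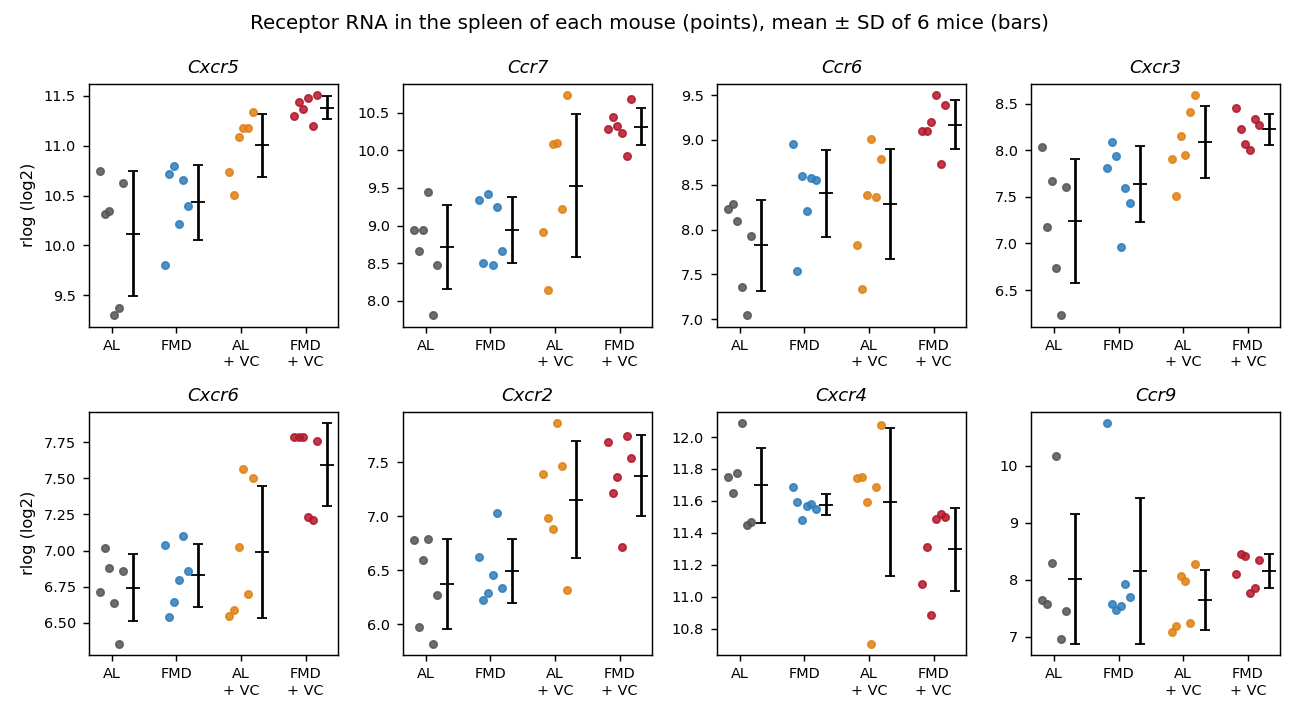
Rlog value (log2, vertical axis) of 8 receptors in each mouse, by group; points are mice, and the bars are the mean ± SD of 6 mice. For Cxcr5, Ccr7, Ccr6 and Cxcr6 every FMD + VC point lies above every AL point, for Cxcr4 the lowest point is AL + VC mouse 18, and for Ccr9 FMD mouse 7 and AL mouse 25 stand above the rest.

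The remaining 7 tested receptors did not pass. The log2 difference between FMD + VC and AL was 0.37 for the myeloid receptor Ccr1 (adjusted p = 0.0517), 0.14 for Ccr9, 0.08 for the monocyte receptor Ccr2, 0.04 for the eosinophil receptor Ccr3, -0.24 for Ccr8, -0.38 for Ccr4 and -0.64 for Ccr10 (adjusted p = 0.0858). Ccr9, the receptor of CCL25 on gut-homing lymphocytes and thymocytes, was at 10.75 in FMD mouse 7 and 10.17 in AL mouse 25 and at 8.45 or lower in the other 22 mice. Of its windows 20.1% are shared with other genes. Ccr3 varied widely in the vincristine groups, with an SD of 1.28 in AL + VC and 1.23 in FMD + VC beside 0.77 in AL and 0.33 in FMD.

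Receptors and ligands known to bind each other were set side by side. Of 33 pairs 17 had both genes tested. In 4 pairs both genes were higher in FMD + VC than in AL (among them Cxcl13 and Cxcr5, Cxcl9 and Cxcr3, Cxcl16 and Cxcr6). In 4 the receptor rose and the ligand did not pass, and in 2 the ligand rose and the receptor did not pass (Cxcl12 and Cxcr4, Ccl5 and Ccr1). In 2 the ligand fell and the receptor did not pass (Ccl22 and Ccr4, Ccl9 and Ccr1), in 5 neither passed, and in 0 were the calls opposite. Pairs that share a gene are not independent. The pair counts are built from the calls of single genes above, where 19.5% of all tested genes were higher and 20% lower. How many pairs of each kind those calls alone would give was not determined.

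For 4 of the 7 receptors that rose (Ccr7, Ccr6, Cxcr2 and Cxcr3) the listed ligands were partly or wholly under the minimum, among them both ligands of Ccr7. Ccl19 had rlog values of -1.39 to -1.22 in AL and -1.38 to -1.07 in FMD + VC, and Ccl21a had -1.26 to 0.20 and -1.25 to -1.22. Ccl21b was at 0 in every mouse, and Ccl21c had a mean of -0.30. Ccl19 and the Ccl21 genes lie in a duplicated region. Of the 50-base windows of the transcripts 52% in Ccl19, 71.6% in Ccl21a and 100% in Ccl21b are shared with other genes, and reads that fit more than 1 copy cannot be assigned to 1 of them. The coding sequences of Ccl21a and Ccl21b, of 402 bases each on chromosome 4 of GRCm38, differ at 2 positions (99.5% identity). Coding bases 164 to 223 are shown, with the base that differs in capitals, since within the coding sequence these 2 genes differ only at such bases.
Ccl21a: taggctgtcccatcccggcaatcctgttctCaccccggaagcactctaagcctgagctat
Ccl21b: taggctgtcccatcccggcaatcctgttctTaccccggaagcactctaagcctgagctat

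How far shared reads lowered the values of Ccl19 and the Ccl21 genes was not tested. The other untested ligands were Ccl1, Ccl2, Ccl7, Ccl12, Ccl17, Ccl20, Ccl24, Ccl26, both rows of Ccl27a, Ccl27b, Ccl28, Cxcl1, Cxcl2, Cxcl3, Cxcl11, Cxcl14, Cxcl15 and Cxcl17, and Cxcr1 was the untested receptor. Their mean values ran from -4.17 for Ccl27b and Cxcl15 to 3.12 for Ccl17, and Ccl26 and the second row of Ccl27a, like Ccl21b, were at 0 in every mouse. Ccl17, the other ligand of CCR4, had 2.83, 3.39 and 4.11 in AL, 2.72, 3.75 and 4.52 in FMD, 2.29, 2.78 and 3.36 in AL + VC and 2.22, 2.58 and 2.74 in FMD + VC. Its FMD + VC values lay wholly below those of AL.

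Vincristine without the diet was examined by comparing AL + VC with AL. Here 3 of 30 members were called, Cxcr5, Cxcr3 and Cxcr2, all higher, where 6.45% of all tested genes passed (3.92% as higher and 2.53% as lower). The log2 difference was 0.89 for Cxcr5 (standard error 0.22, adjusted p = 0.0277), 0.84 for Cxcr3 (standard error 0.24, adjusted p = 0.0427) and 0.78 for Cxcr2 (standard error 0.23, adjusted p = 0.0464). All 3 overlapped between the groups. Cxcr5 did not pass without AL mouse 25, 32 or 33 or AL + VC mouse 17, 18 or 41 (adjusted p 0.00646 to 0.0865 over 12 fits). Cxcr3 passed only without AL mouse 2 or AL + VC mouse 13 or 14 (0.0121 to 0.114), and Cxcr2 only without AL mouse 2 or 25 or AL + VC mouse 14 (0.0265 to 0.132). When only these 2 groups were fitted, none of the 3 passed. With limma's weights none of them passed either, and Ccl22 was called as lower, beside 1.56% of all tested genes. No ligand passed, the nearest being Ccl22 at -0.96 (standard error 0.30, adjusted p = 0.0549), and 6 ligands had an unadjusted p under 0.05, beside 28% of all tested genes. Of 10 mature B cell genes 9 were higher in AL + VC than in AL, and of 13 T cell genes 3.

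The AL + VC mice differed widely among themselves for several members. Ccr7 was at 10.08, 10.09 and 10.74 in mice 17, 18 and 41, within or above the range of FMD + VC, and at 8.92, 8.14 and 9.22 in mice 13, 14 and 37. For Ccl5 the same mice had 9.41, 8.85 and 9.57 against 7.81, 7.75 and 8.35, and for Cxcl16 8.79, 8.76 and 8.71 against 7.60, 7.42 and 8.00. Mice 17, 18 and 41 are those with low Xist, and their T cell means were 10.03, 9.57 and 10.16 against 8.15, 7.97 and 8.65 in mice 13, 14 and 37. Neutrophil means were 5.25, 6.20 and 5.52 against 8.51, 8.68 and 8.35. For Cxcl13 the values were 9.88, 11.08 and 9.97 in mice 17, 18 and 41 and 9.23, 8.63 and 9.90 in the others. These sets overlapped only narrowly, at 9.88 and 9.90. How many of the tested members, or of all tested genes, set these mice apart was not determined. The difference can therefore not be called particular to chemokine genes.

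The diet was examined among vincristine-treated mice by comparing FMD + VC with AL + VC. No member passed, as no tested gene did (0% called). Beside 11.3% of all tested genes (6.27% as higher), 4 ligands and 3 receptors had an unadjusted p under 0.05 in limma. All 7 were higher in FMD + VC. They were Cxcl13 with a log2 difference of 1.04 (95% interval 0.47 to 1.60), Cxcl9 with 0.93 (0.30 to 1.57), Ccl5 with 0.65 (0.07 to 1.23), Cxcl16 with 0.52 (0.07 to 0.97), Ccr6 with 0.89 (0.34 to 1.43), Ccr7 with 0.78 (0.11 to 1.45) and Cxcr6 with 0.61 (0.24 to 0.97). The smallest adjusted p was 0.422. The lower ends of these intervals ran from 0.07 (Ccl5 and Cxcl16) to 0.47 (Cxcl13). Their upper ends ran from 0.97 (Cxcl16 and Cxcr6) to 1.60 (Cxcl13), so the size of each difference is uncertain. The 3 receptors called for vincristine alone had log2 differences of 0.38 for Cxcr5 (95% interval -0.07 to 0.83), 0.14 for Cxcr3 (-0.36 to 0.64) and 0.22 for Cxcr2 (-0.25 to 0.70). Without AL + VC mouse 18, whose Cxcl13 value of 11.08 is the highest of all, Cxcl13 passed with a log2 difference of 1.30 (adjusted p 0.0277 to 0.902 over the 12 fits without 1 mouse).

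With limma's weights for each mouse 9 of 30 members passed between FMD + VC and AL + VC, where 30% of all tested genes passed in the same fit (14.9% as higher and 15% as lower). Among them were Cxcl13, Ccl5, Cxcl16, Cxcl9, Ccr6, Ccr7, Cxcr6 and Cxcr4, of which Cxcr4 was lower. AL + VC mice 17, 18 and 41 counted less than mice 13, 14 and 37 in this fit.

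The diet without vincristine was examined by comparing FMD with AL. No member and no other tested gene passed (0% called). In limma 0 ligands and 1 receptor, Ccr6, had an unadjusted p under 0.05, beside 4.27% of all tested genes, with a log2 difference of 0.58 and a smallest adjusted p over the members of 0.934. The difference for Cxcl13 was 0.42 and for Ccr7 0.23, and every tested member overlapped between FMD and AL, as did all but 0.23% of the tested genes (0.145% lay wholly higher in FMD).

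Vincristine added to the diet was examined by comparing FMD + VC with FMD, where 10 of 30 members passed, all higher, beside 23.5% of all tested genes (12.6% higher and 10.9% lower). This comparison shares the FMD + VC mice with the comparison with AL. The ligands were Cxcl13 at 1.40 (standard error 0.27, adjusted p = 0.00268), Cxcl9 at 1.04, Ccl5 at 1.00, Cxcl12 at 0.87 and Cxcl16 at 0.80. The receptors were Ccr7 at 1.37 (standard error 0.32, adjusted p = 0.00625), Cxcr5 at 0.95, Cxcr2 at 0.88, Ccr6 at 0.77 and Cxcr6 at 0.77. Ranges did not overlap for 4 of the 15 ligands and 3 of the 15 receptors, beside 11.1% of all tested genes (5.96% higher in FMD + VC). The direction of the calls depended on the fit. With limma's weights 12 members were higher and 8 lower (Ccl22, Ccl3, Ccl4, Ccl6, Ccl9, Cxcr4, Ccr8 and Ccr10), beside 28.1% and 28.3% of all tested genes (56.4% in all), and when only these groups were fitted 11 were higher and Ccl3 and Ccl9 lower. Ccr6 (adjusted p = 0.0377) passed only without FMD mouse 7, 9 or 26 or FMD + VC mouse 45 among 12 fits (adjusted p 0.0248 to 0.104), and Cxcl9 (adjusted p = 0.0187) did not pass without FMD mouse 11 (0.0217 to 0.0514).

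Whether the difference made by the diet depended on vincristine was tested by the interaction of diet and drug. No member and no other tested gene passed (0% called). In limma 1 ligand (Cxcl9, at 1.01) and 1 receptor (Cxcr6, at 0.52) had an unadjusted p under 0.05, beside 3.04% of all tested genes. For Cxcl13 the interaction was 0.62 and for Ccr7 0.55 on the log2 scale, neither of which passed.

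Of 14 other chemokine genes outside the name rule, 13 were tested. In FMD + VC 4 were higher than in AL and 1 was lower, where 19.5% of all tested genes were higher and 20% lower (39.5% in all). Xcr1, the receptor of cross-presenting dendritic cells, had a log2 difference of 1.88 (standard error 0.28), Ackr2, a decoy receptor that removes CC chemokines, 1.61 (standard error 0.27), Rarres2, which encodes the attractant chemerin, 0.82 and the receptor of fractalkine, Cx3cr1, 0.55. The platelet chemokine Pf4 fell by 1.04. Of 8 megakaryocyte and platelet genes, Pf4 among them, 3 were lower and 0 higher in FMD + VC than in AL, with a median log2 difference of -0.86 and mean levels of 8.19 to 8.88 in AL and 6.71 to 8.51 in FMD + VC. Their part in the values of Pf4 and of Rgs18, given next, was not tested. In chemokine receptor signalling 9 of the 22 tested genes were higher and 1 was lower, beside the same shares of all tested genes. The median log2 difference was 0.09. Those with the smallest adjusted p were Grk5, a kinase that turns receptors off, at 0.71, Dock2, which drives lymphocyte migration, at 0.75, Rgs13, a brake on G protein signals in germinal centre B cells, at 2.33, and Rgs18, a brake found in platelets and megakaryocytes, at -1.36.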

How the data were processed

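Spleen RNA of 24 mice (1 library each, 6 per group) was sequenced by the authors from a single end after removal of ribosomal RNA. The authors used HISAT2 2.1.0 for mapping to GRCm38, HTSeq 0.6.1 (intersection-strict) for counting per gene and DESeq2 for the transformation. Deposited values are log2 values (rlog) of 46078 rows. The strand setting was not given in the sources used here, and the methods name the annotation as GRCh38 although the symbols are those of mouse genes. No counts were used, so depth per mouse is unknown and precision comes from the spread between mice.

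Rows with a mean rlog under 3.32 were left out, which left 16557. The groups were fitted by limma 3.58.1 in R 4.3.3 (1 coefficient per group, 20 residual degrees of freedom, eBayes with trend, Benjamini-Hochberg adjustment over all tested genes, threshold 0.05, two-sided), after the script had been checked on simulated data. Members and gene lists were chosen with earlier results of these data known. Full values are given for members called in at least 1 pairwise comparison and for the homing pairs, other tested members by their difference, and untested members by level. Of the other lists up to 4 genes with the smallest adjusted p between FMD + VC and AL are named, with Pf4 named after its value was seen. Coordinates and transcripts are those of GENCODE for GRCm38, and promoters those of RefSeq (GRCm38.p6), where 37 of the 53 names matched. Windows of 50 bases were compared between transcripts. Alternatives were no minimum, a minimum of log2 of 50, quantile normalization, fits restricted to the groups at hand, limma's arrayWeights and leaving out each mouse in turn. Figures were drawn with matplotlib 3.10.9. Results of 1 tested receptor are not reported here by name, while the counts include it.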

Additional observations from a re-analysis of the deposited data

Results flagged for a closer look

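In 9 of 120 sets of 6 mice (30 tested members in 4 groups) the highest or lowest mouse lay so far from its nearest neighbour that the gap as a share of the range of the group exceeded Dixon's 95% critical value for 6 samples. Chance alone marks about 1 in 20 such sets. AL mouse 32 was the lowest of its group for Ccl22, at 7.33, and for Ccr8, at 3.42. AL mouse 6 was the highest of its group for Ccl8, at 5.77. FMD mouse 7 was the highest for Ccr9, at 10.75. AL + VC mouse 17 was the lowest for Ccl9, at 5.40. AL + VC mouse 18 was the highest of its group for Cxcl12, at 12.23, and the lowest for Cxcr4, at 10.70. FMD + VC mouse 45 was the highest of its group for Ccl9, at 6.81, and for Ccr1, at 6.89.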

How the results depend on the processing

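Of the 14 members called between FMD + VC and AL, 10 passed in each of the 12 fits without 1 mouse. Between FMD + VC and FMD 8 of 10 did, and between AL + VC and AL none of 3 did. With limma's weights for each mouse 21 members passed between FMD + VC and AL (62.9% of all tested genes) and 20 between FMD + VC and FMD (56.4%). In that fit 9 passed between FMD + VC and AL + VC (30%), 1 between AL + VC and AL (1.56%) and 1 (Cxcr6) in the interaction of diet and vincristine. Between AL + VC and AL 1 passed without a minimum and 0 when only these 2 groups were fitted. Over the fits without 1 mouse the number called ran from 0 to 8 between AL + VC and AL and from 0 to 1 between FMD + VC and AL + VC. The share of all tested genes that passed was not determined for the fits without 1 mouse, without a minimum or of the compared groups alone. It was not determined for the weighted interaction either. Whether the member counts of those fits moved apart from that share is therefore unknown. Between AL + VC and AL the sign turned for Cxcl9 (-0.21 with weights, -0.23 to 0.28 without 1 mouse) and for Cxcr4 (-0.20 to 0.073 without 1 mouse), and neither was called. Without a minimum, Ccl17 at -0.89 and Ccl27a at 0.63 also passed between FMD + VC and AL, while Ccl22 and Ccl9 did not. Between FMD + VC and FMD that fit also gained Ccl17 and Ccl27a and lost Ccr6. Quantile normalization lost Ccl22 and Ccl9 and gained Ccr1. The cause of these changes was not tested. No paired analysis was possible because no mouse number occurs in more than 1 group. Depth could not be read from rlog values, and the rows under the minimum were tested only in the fit without one, apart from the 3 at 0 in every mouse.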
